A study of Mus musculus with 12 samples.

Results

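The genes described are 10 genes of glucose uptake, glycolysis and lactate production: *Slc2a1*, *Hk2*, *Gpi1*, *Pfkl*, *Pfkp*, *Aldoa*, *Tpi1*, *Pgk1*, *Pkm* and *Ldha*. They, and the gene lists set beside them, were chosen with earlier results of these data known. Their counts beside all genes are therefore descriptions and not independent evidence. The members were matched by gene symbol, and all 10 symbols were found among the 54146 genes of the expression tables. *Aldoa* is listed under 2 gene IDs, so that 11 IDs carry the 10 symbols. The second *Aldoa* ID (ENSMUSG00000114515.2) had a mean normalised count of 41.1, below the minimum of 100 used for testing, and *Aldoa* from here on means ENSMUSG00000030695.16. All 10 genes passed that minimum in every comparison.

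The study removed the transcription factor PRDM10 from mouse embryonic stem cells (mESCs) and followed the RNA on Day 2 and Day 4. All 12 libraries came from C57BL/6 mESCs that carry *Prdm10*F/F alleles, in which exon 5 lies between loxP sites, and a Rosa26-CreERT2 allele, which makes a Cre recombinase that acts once 4-hydroxytamoxifen (OHT) is added. Cells received 50 nM OHT or the solvent ethanol (EtOH), so the EtOH cells share both alleles but were not exposed to OHT, and no group had OHT without the floxed alleles. Each of the 4 groups, Day 2 EtOH, Day 2 OHT, Day 4 EtOH and Day 4 OHT, has 3 libraries, with 35017667 to 41409992 expected counts (estimated read pairs per gene, summed) in a library. The study's methods describe its experiments in general as having independent biological repeats, but the labels do not say that the 3 libraries of a group came from separate cultures. If they did not, the p-values measure only the spread between these libraries, which may be technical.

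OHT treatment and loss of PRDM10 cannot be told apart in this design, and the groups are named here by the agent on their label. Normalised counts of *Prdm10* itself were 767, 821 and 815 in Day 2 EtOH and 2080, 2225 and 2213 in Day 2 OHT, and 821, 875 and 911 in Day 4 EtOH against 1982, 2090 and 1965 in Day 4 OHT. The counts were thus higher in every library labelled OHT (log2 fold change 1.44 ± 0.065 (SE) on Day 2 and 1.21 ± 0.062 on Day 4). The whole-gene count does not show exon 5, so it does not check the deletion in either direction. The study assayed exon 5 and the protein by other methods, which were not analysed here, and every OHT direction given refers to libraries carrying the OHT label. The libraries carried the labelled cell type's markers: 8 pluripotency genes, among them *Pou5f1*, *Sox2* and *Nanog*, summed to between 2365 and 2849.6 TPM (transcript abundance corrected for length and scaled to the same total in every library), whereas 7 fibroblast markers summed to 0.88 to 3.22 TPM and 6 primitive endoderm markers to 1.1 to 1.9 TPM. Of the fibroblast markers, *Lum* was at 0 in every Day 2 EtOH and Day 4 OHT library and *Dcn* in every Day 2 OHT library.

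Glycolysis splits glucose into pyruvate in the cytosol. Glucose enters through transporters such as GLUT1 (*Slc2a1*), is trapped as glucose 6-phosphate by hexokinase (*Hk2*), isomerised by *Gpi1*, and committed to the pathway by phosphofructokinase, the main control point, whose subunits are made by *Pfkl*, *Pfkp* and *Pfkm*. Aldolase (*Aldoa*) and triose phosphate isomerase (*Tpi1*) deliver the triose phosphates, phosphoglycerate kinase (*Pgk1*) and pyruvate kinase (*Pkm*) form ATP, and lactate dehydrogenase A (*Ldha*) turns pyruvate into lactate. Mouse ESCs run glycolysis at a high rate, and many of these genes are well-known targets of the hypoxia-inducible factor HIF-1 and of MYC.

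Upstream sequence of 4 members is printed because *Pfkl* and *Pfkp*, which encode subunits of the same enzyme, moved in opposite directions in OHT on Day 4, and because *Pgk1* and *Ldha* are textbook HIF-1 targets. Each is the 150 bases before the RefSeq start (GRCm38.p6), 5′ to 3′ on the gene's strand, and capitals mark the HIF-1 core letters ACGTG or GCGTG on either strand (CACGT or CACGC as printed).
Pfkl, chr10:78009808-78009957, minus strand: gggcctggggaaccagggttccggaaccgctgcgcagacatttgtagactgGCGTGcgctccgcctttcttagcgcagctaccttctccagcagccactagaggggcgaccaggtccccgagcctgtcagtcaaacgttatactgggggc
Pfkp, chr13:6648772-6648921, minus strand: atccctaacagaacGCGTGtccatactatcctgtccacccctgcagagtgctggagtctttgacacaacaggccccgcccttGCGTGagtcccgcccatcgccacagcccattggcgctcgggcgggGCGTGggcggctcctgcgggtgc
Pgk1, chrX:106186950-106187099, plus strand: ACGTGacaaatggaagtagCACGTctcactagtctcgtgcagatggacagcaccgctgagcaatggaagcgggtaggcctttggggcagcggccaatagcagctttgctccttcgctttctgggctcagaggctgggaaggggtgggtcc
Ldha, chr7:46845654-46845803, plus strand: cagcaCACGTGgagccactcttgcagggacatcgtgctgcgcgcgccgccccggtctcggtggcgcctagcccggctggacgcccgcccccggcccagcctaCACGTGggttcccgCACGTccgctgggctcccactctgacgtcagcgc

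The *Pfkl* window held the letters once, 99 bases before the start, and the *Pfkp* window 3 times, at 136, 68 and 23 bases, each time as GCGTG. *Pgk1* held ACGTG at 150 and 131 bases before its start. In *Ldha* the matches at 145 and 144 bases, and at 48 and 47 bases, are the same letters read on both strands of CACGTG, and a further ACGTG lies at 34 bases. Another RefSeq window of *Ldha*, not printed, held only GCGTG, at 59 bases before its start. Over the 14 RefSeq windows of the 10 members, 6 held ACGTG and 4 held GCGTG, and 9 held either, in 8 of the genes. Only 1 of the 14, the printed *Ldha* window, held CACGTG. 2 of the *Aldoa* windows overlap each other. Of all 32851 RefSeq windows of this length, 11.2% held ACGTG, 20.5% held GCGTG, 28.6% held either and 4.3% held CACGTG. These are letter matches and not binding sites.

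The members were lower together in the Day 4 libraries than in the Day 2 libraries. Day and harvest cannot be told apart in this design, and a fall with day here means this difference. In the EtOH libraries all 10 were called lower on Day 4 than on Day 2, at a median log2 fold change of -1.1 (range -1.5 to -0.48). Over all genes tested the median was -0.0015, with 20.5% called lower, 20.6% called higher and 41.1% called in either direction. In the OHT libraries all 10 were again called lower, with a median of -0.84 (range -1.69 to -0.33) against 0.036 over all genes, of which 23.0% were called lower, 30.7% higher and 53.6% either way. In both treatments every Day 4 library was below every Day 2 library for all 10 members, as for 29.4% of genes in EtOH and 31.2% in OHT. Day 4 libraries were all above for 29.6% of genes in EtOH and 38.9% in OHT, and for 0 members. The OHT cultures ended higher than the EtOH cultures for most members on Day 4, where 7 of 10 were called higher (23.5% of all genes tested), 1, *Pfkp*, was called lower (21.7%, and 45.1% either way), and *Hk2* and *Ldha* were not called. Of the 8 pluripotency markers, 6 were also called higher in OHT on Day 4 (median 0.17), and their part in the result was not tested. On Day 2 the differences were small, with 4 of 10 called lower (10.6% of all genes tested) and 0 called higher (9.17%, and 19.8% either way). Of the pluripotency markers, 3 of 8, *Pou5f1*, *Sox2* and *Tdgf1*, were also called lower on Day 2 and 1, *Esrrb*, higher. A call here is a DESeq2 adjusted p below 0.05 at a mean normalised count above 100. The Day 4 EtOH libraries enter both the Day 4 OHT comparison and the day comparison in EtOH, so the direction of the first is not independent of that of the second. In bulk RNA, a lower level in each cell and fewer cells that express the gene cannot be told apart.

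**Figure D1:**
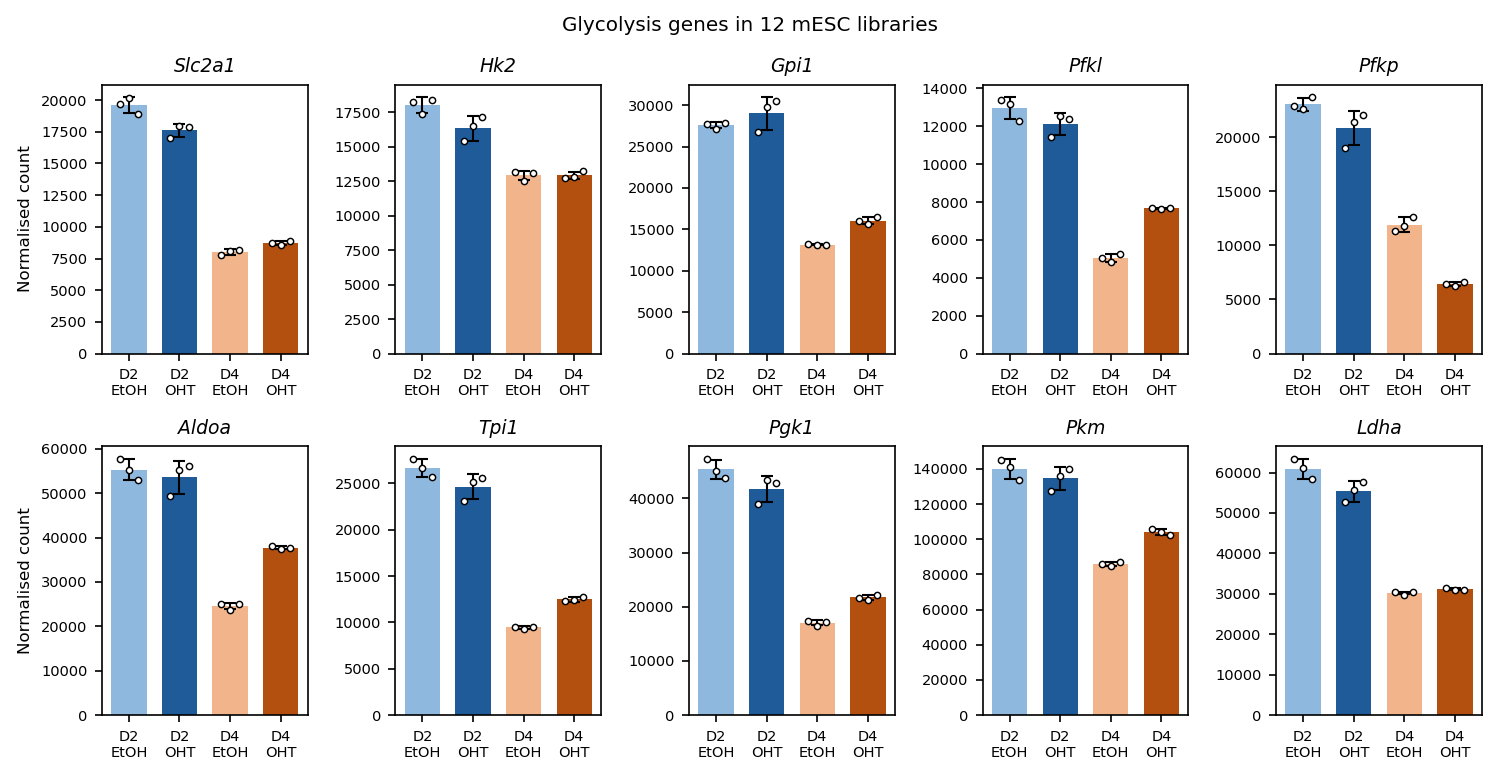
Normalised counts of the 10 glycolysis genes by group, with bars for the mean, error bars for the SD and points for the 3 libraries of each group (D2, Day 2 and D4, Day 4). In every panel the 6 Day 4 libraries lie below the 6 Day 2 libraries, and *Pfkp* is the 1 gene whose Day 4 OHT libraries lie below Day 4 EtOH.

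Levels between genes were compared in TPM, which divides by transcript length. In Day 2 EtOH *Pkm* was highest, at 1323 ± 28.6 TPM (SD, n = 3), followed by *Ldha* at 902 ± 20.4 TPM and *Aldoa* at 866 ± 22.2 TPM, whose libraries overlapped here and in Day 2 OHT. *Pgk1* followed at 573 ± 12.5 TPM, *Tpi1* at 394 ± 7.1 TPM and *Gpi1* at 316 ± 17.2 TPM, with no overlap between neighbours. The transporter and the enzymes of the early, regulated steps were lowest: *Slc2a1* at 149.5 ± 4.35 TPM, *Pfkp* at 132 ± 4.92 TPM, *Hk2* at 108 ± 4.67 TPM and *Pfkl* at 82.0 ± 1.99 TPM. *Pkm* was thus listed highest and the early steps lowest, and that held in all 4 groups. Within the early steps the order moved, so that in Day 4 EtOH *Hk2* (87.2 ± 1.79 TPM) lay above *Pfkp* (78.1 ± 3.92 TPM), *Slc2a1* (68.0 ± 2.15 TPM) and *Pfkl* (34.8 ± 1.4 TPM), without overlap. In Day 4 OHT *Pfkp* was the lowest member at 38.6 ± 0.86 TPM, below *Pfkl* at 51.7 ± 1.26 TPM, and *Tpi1* (201 ± 5.8 TPM) and *Gpi1* (199.8 ± 8.08 TPM) overlapped.

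**Figure D2:**
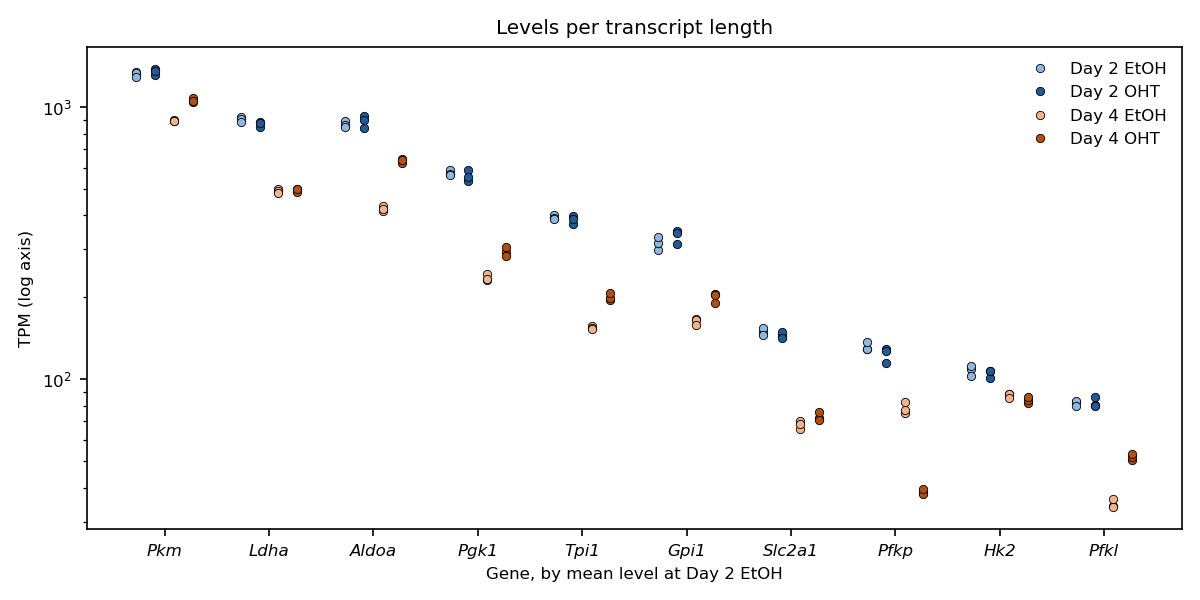
TPM of each member (log axis) in the 12 libraries, coloured by group, with genes in order of their mean in Day 2 EtOH. In Day 2 EtOH the means span from *Pkm* at 1323 TPM to *Pfkl* at 82.0 TPM, and the lowest group mean is *Pfkl* at 34.8 TPM in Day 4 EtOH. *Pfkp* drops below *Pfkl* in the Day 4 OHT libraries alone.

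The 10 members together took 0.485% ± 0.00694 of all TPM in Day 2 EtOH and 0.485% ± 0.017 in Day 2 OHT, with overlapping libraries. Their share was 0.263% ± 0.00285 in Day 4 EtOH and 0.314% ± 0.00508 in Day 4 OHT, and no library of these groups overlapped another group. By expected counts the shares were 1.1%, 1.07%, 0.568% and 0.672% in the same order. The order of the groups was the same on both scales except that the Day 2 means were equal in TPM.

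At the entry of the pathway, *Slc2a1* (chr4:119108711-119137983) had normalised counts of 19715, 20150 and 18896 in Day 2 EtOH, 17005, 17927 and 17897 in Day 2 OHT, 7743, 8088 and 8177 in Day 4 EtOH and 8688, 8570 and 8896 in Day 4 OHT. The OHT libraries lay below EtOH on Day 2 and above it on Day 4, without overlap. The log2 fold change in OHT was -0.15 ± 0.04 (SE, adjusted p = 0.00208) on Day 2 and 0.12 ± 0.034 (adjusted p = 0.00192) on Day 4, and the Day 2 call was lost without EtOH replicate 2. Both differences were small beside the fall with day of -1.29 ± 0.038 in EtOH and -1.01 ± 0.036 in OHT. *Hk2* (chr6:82725025-82774454), a hexokinase that binds mitochondria, had 18244, 17354 and 18407 in Day 2 EtOH, 15374, 16465 and 17120 in Day 2 OHT, 13162, 12517 and 13055 in Day 4 EtOH and 12737, 12788 and 13216 in Day 4 OHT. Its Day 4 groups overlapped, at a log2 fold change of -0.0019 with a 95% interval of -0.064 to 0.06. *Hk2* fell least of the 10 with day, by 0.48 on the log2 scale in EtOH and by 0.33 in OHT. In OHT its range over the alternative fits (-0.38 to -0.3) overlapped that of *Pkm* (-0.4 to -0.34). The Day 2 difference of *Hk2* in OHT, -0.14 ± 0.045, passed the test (adjusted p = 0.017). This Day 2 call was lost with total counts as scaling, with effective lengths as offsets, and without EtOH replicate 1 or 3 or OHT replicate 1 or 2.

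The isomerase *Gpi1* (chr7:34201330-34230336) had 27783, 27129 and 27819 normalised counts in Day 2 EtOH and 26776, 29738 and 30464 in Day 2 OHT, which overlap. It had 13188, 13079 and 13094 in Day 4 EtOH and 15953, 15615 and 16462 in Day 4 OHT, so that every Day 4 OHT library was above every EtOH one. *Gpi1* was the 1 member with a positive estimate in OHT on Day 2, at 0.073 with a 95% interval of -0.018 to 0.16. On Day 4 it was called higher at 0.28 ± 0.03.

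Phosphofructokinase showed the clearest difference between the members. *Pfkl* (chr10:77986947-78010083), the liver-type subunit, had 13377, 13184 and 12297 normalised counts in Day 2 EtOH, 11452, 12557 and 12361 in Day 2 OHT, 5043, 4831 and 5257 in Day 4 EtOH and 7701, 7653 and 7680 in Day 4 OHT. *Pfkp* (chr13:6579768-6648777), the platelet-type subunit, had 22883, 22584 and 23709 in Day 2 EtOH, 19042, 21423 and 22052 in Day 2 OHT, 11357, 11806 and 12646 in Day 4 EtOH and 6387, 6290 and 6608 in Day 4 OHT. On Day 4 every OHT library was above every EtOH library for *Pfkl* and below for *Pfkp*. The *Pfkl* count in Day 4 OHT was 1.52-fold that in EtOH (log2 0.6 ± 0.037, adjusted p = 2.31e-56), and the *Pfkp* count was 0.538-fold (log2 -0.9 ± 0.04, adjusted p = 4.77e-107). The opposite movement was not seen on Day 2, where *Pfkl* was not called (log2 -0.095, 95% interval -0.19 to -0.0038) and *Pfkp* was called lower at -0.15 ± 0.05 (adjusted p = 0.029). That call of *Pfkp* was lost with edgeR, with TMM factors, with total counts as scaling, with no minimum count, and without any 1 of the Day 2 libraries except OHT replicate 3. The difference between the days was 0.7 ± 0.061 for *Pfkl* and -0.75 ± 0.071 for *Pfkp*. From Day 2 to Day 4 *Pfkl* fell by 1.36 in EtOH and by 0.66 in OHT, whereas *Pfkp* fell by 0.95 in EtOH and by 1.69 in OHT.

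*Aldoa* (chr7:126795234-126800751) had 57733, 55159 and 52965 normalised counts in Day 2 EtOH, 49336, 55159 and 56070 in Day 2 OHT, 24958, 23754 and 25114 in Day 4 EtOH and 38116, 37496 and 37598 in Day 4 OHT. The Day 2 groups overlapped and the Day 4 groups lay far apart. Its rise in OHT on Day 4, at log2 0.61 ± 0.029 (adjusted p = 6.28e-98), was level with that of *Pfkl*. *Tpi1* (chr6:124810586-124814296) had 27662, 26665 and 25672 in Day 2 EtOH, 23087, 25139 and 25642 in Day 2 OHT, 9501, 9324 and 9543 in Day 4 EtOH and 12281, 12454 and 12764 in Day 4 OHT. *Tpi1* fell furthest of the 10 with day in EtOH, by 1.5 ± 0.036 on the log2 scale, to 0.354 of its Day 2 count. In OHT on Day 4 it was called higher at 0.4 ± 0.03, and on Day 2 its estimate of -0.11 ± 0.045 missed the threshold (adjusted p = 0.0636) although the OHT libraries lay below the EtOH ones.

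Of the ATP-forming steps, *Pgk1* (chrX:106187100-106203699) had 47297, 45017 and 43744 normalised counts in Day 2 EtOH, 39041, 43401 and 42912 in Day 2 OHT, 17413, 16503 and 17106 in Day 4 EtOH and 21682, 21191 and 22232 in Day 4 OHT. It fell by 1.42 ± 0.037 in EtOH, next to *Tpi1*, and was called higher in OHT on Day 4 at 0.35 ± 0.031. On Day 2 its estimate in OHT of -0.12 ± 0.046 missed the threshold of the DESeq2 test (adjusted p = 0.0577). *Pgk1* has processed copies in the genome, and RSEM's posterior SD for its count was at most 0.452% of the count, the highest of the 10 and far below the effects given. *Pkm* (chr9:59656368-59679375) had 145177, 141048 and 133713 in Day 2 EtOH, 127709, 136041 and 140013 in Day 2 OHT, 86138, 84688 and 87302 in Day 4 EtOH and 106104, 104094 and 102575 in Day 4 OHT. It fell by 0.7 ± 0.035 in EtOH and was called higher in OHT on Day 4 at 0.27 ± 0.026. The gene count does not separate the PKM1 and PKM2 splice forms.

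*Ldha* (chr7:46841475-46855627) had 63268, 61166 and 58362 normalised counts in Day 2 EtOH, 52692, 55590 and 57734 in Day 2 OHT, 30430, 29773 and 30335 in Day 4 EtOH and 31402, 31013 and 30897 in Day 4 OHT. On Day 4 all OHT libraries lay above the EtOH ones, but by little, and the estimate of 0.041 ± 0.026 was not called (95% interval -0.0087 to 0.091). On Day 2 *Ldha* was called lower in OHT at -0.14 ± 0.043 (adjusted p = 0.0119), a call that was lost with total counts as scaling, with the length trend removed, and without EtOH replicate 1 or 2 or OHT replicate 1 or 2. It fell by 1.02 with day in EtOH and by 0.83 in OHT, so that *Ldha* ended at nearly the same level in both Day 4 groups.

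**Figure D3:**
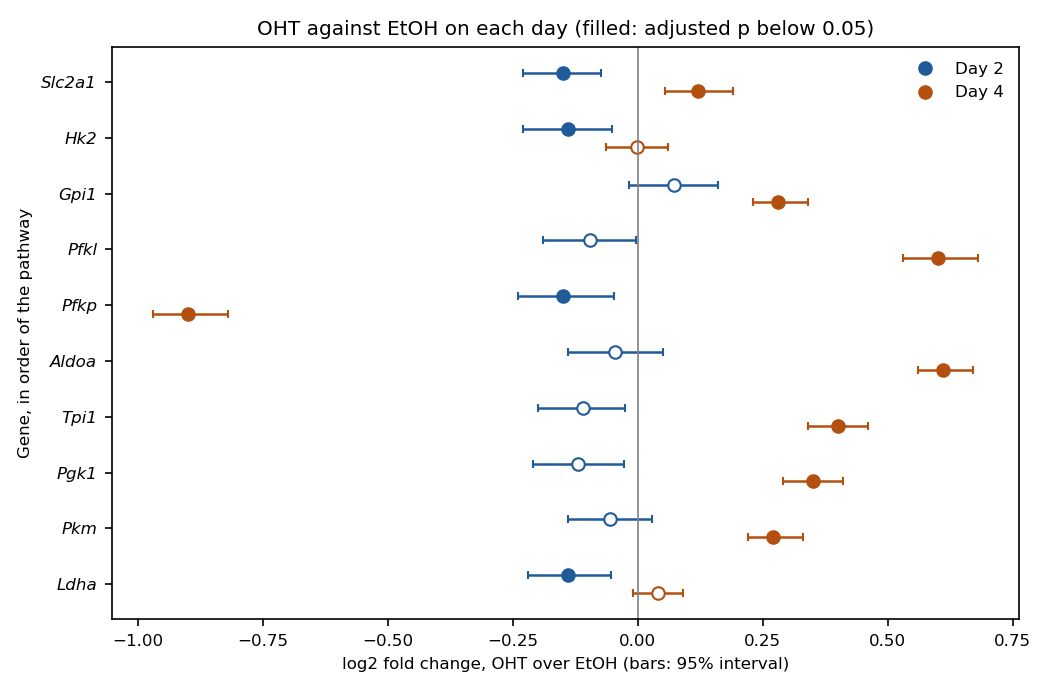
Log2 fold change of OHT over EtOH on Day 2 and Day 4 for each member in pathway order, with 95% intervals, filled where DESeq2 called the gene. Day 2 values lie between -0.15 and 0.073, Day 4 values reach from -0.9 for *Pfkp* to 0.61 for *Aldoa*.

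Whether the OHT effect differed between the days was tested as the treatment-by-day term of a fit to the 12 libraries. All 10 members passed (32.3% of all genes tested passed in either direction), 9 with a higher effect on Day 4 (18.7% of all genes tested were called higher) and *Pfkp* with a lower one (13.6%). The median difference was 0.31 against 0.035 over all genes. Of the 8 pluripotency markers 6 were called higher and 0 lower in the same test (median 0.2), and their part in the result was not tested. After *Pfkl*, the differences were 0.66 ± 0.063 for *Aldoa*, 0.52 ± 0.056 for *Tpi1*, 0.47 ± 0.059 for *Pgk1* and 0.33 ± 0.052 for *Pkm*. They were smaller for the others, at 0.28 ± 0.049 for *Slc2a1*, 0.21 ± 0.058 for *Gpi1* and 0.18 ± 0.051 for *Ldha*. *Hk2*, at 0.14 ± 0.056, passed narrowly (adjusted p = 0.0497) and was not called with total counts as scaling (adjusted p = 0.197), with effective lengths as offsets (0.236) or with no minimum count (0.0894), nor when either Day 2 EtOH replicate 1 or 3, Day 2 OHT replicate 1 or 2, Day 4 EtOH replicate 2 or 3, or any Day 4 OHT replicate was left out. Its adjusted p ranged from 0.00458 to 0.236 over all the alternatives.

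Counted by libraries, 6 of 10 members had all Day 2 OHT libraries below all Day 2 EtOH libraries, against 27.0% of the 11616 genes with a mean above 100, and 0 had them above (18.6%). On Day 4, 8 members had all OHT libraries above (33.1% of genes) and 1 had them below (29.5%). The 4 calls on Day 2 rest on differences of at most 1.11-fold. With the total count as scaling 1 member, *Slc2a1*, was called lower, and without EtOH replicate 1, EtOH replicate 2, OHT replicate 1 or OHT replicate 2 of that day 1 member was called lower, while without OHT replicate 3 it was 6 and without EtOH replicate 3 it was 4. These 4 were not the same genes, because *Hk2* and *Pfkp* lost the call and *Tpi1* and *Pgk1* gained it. With all 12 libraries in 1 fit *Tpi1* and *Pgk1* were also called lower. Leaving out OHT replicate 1 also called *Gpi1* higher. On Day 4 no alternative test, scaling, filter or omitted library changed the call of any of the 10.

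The share of each member within its enzymatic step was computed from TPM inside a library, which removes the scaling between libraries. *Pfkl* made up 28.6, 28.0 and 28.3% of the summed phosphofructokinase TPM in Day 4 EtOH and 50.7, 51.7 and 51.3% in Day 4 OHT. *Pfkp* made up 62.7, 63.5 and 64.0% in Day 4 EtOH and 38.5, 37.8 and 38.2% in Day 4 OHT. The leading subunit transcript was therefore *Pfkp* in Day 4 EtOH and *Pfkl* in Day 4 OHT, with a *Pfkp* to *Pfkl* ratio of 2.24 ± 0.0412 against 0.745 ± 0.0134. On Day 2 the ratio was 1.61 ± 0.0997 in EtOH and 1.5 ± 0.0768 in OHT, and the shares of both genes overlapped. The muscle-type *Pfkm* stayed low, between 9.82 and 11.2 TPM in the group means, and the summed TPM of the 3 genes was 123 ± 5.0 in Day 4 EtOH and 101 ± 2.09 in Day 4 OHT.

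**Figure D4:**
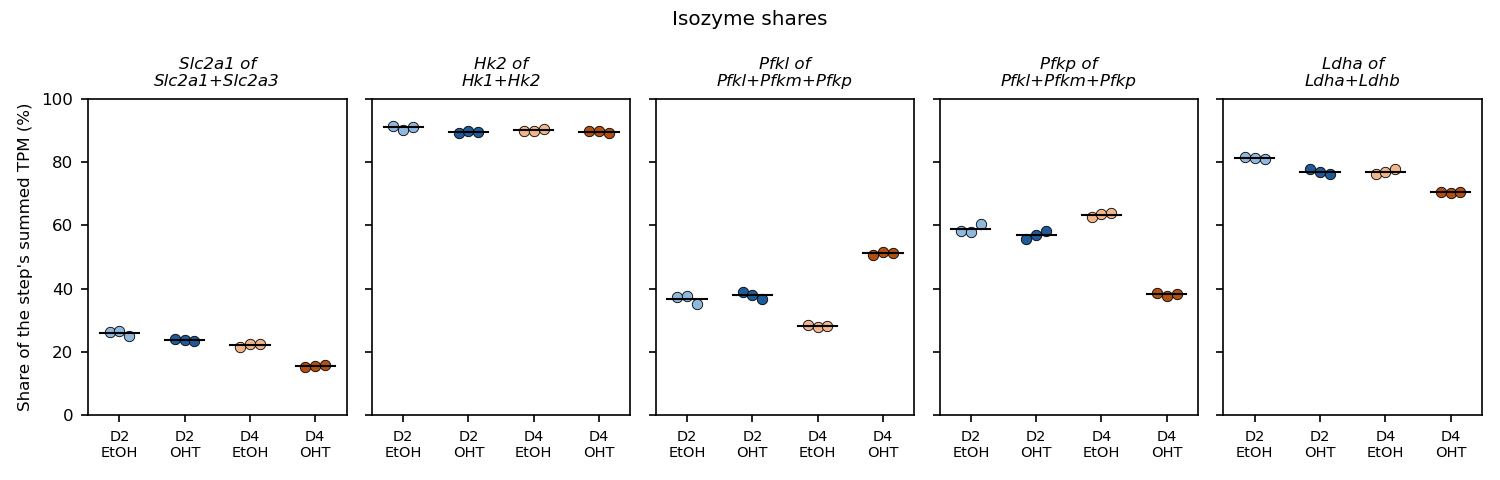
Share of each gene, in percent, of the summed TPM of its step, with points for libraries and lines for group means. The *Pfkl* and *Pfkp* shares cross in Day 4 OHT, whereas *Hk2* stays between 89.6% and 91.0% of hexokinase TPM in the group means.

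Among the glucose transporters, *Slc2a1* was the minor transcript beside *Slc2a3* (GLUT3, a high-affinity transporter). Its share was 25.9% ± 0.71 in Day 2 EtOH and 23.7% ± 0.28 in Day 2 OHT, and 22.2% ± 0.647 in Day 4 EtOH and 15.5% ± 0.273 in Day 4 OHT, without overlap on either day. The summed TPM of both was 307 ± 5.26 in Day 4 EtOH and 469.8 ± 11.3 in Day 4 OHT, and the gap came mostly from *Slc2a3* at 239 ± 4.79 and 397 ± 8.91 TPM. *Ldha* made up 81.2% ± 0.313 of *Ldha* plus *Ldhb* in Day 2 EtOH, 76.9% ± 0.752 in Day 2 OHT, 77.0% ± 0.787 in Day 4 EtOH and 70.4% ± 0.148 in Day 4 OHT. Its share was lower in OHT on both days without overlap. *Hk2* differed by -1.4 percentage points on Day 2 and -0.594 on Day 4, and *Aldoa* held 97.2 to 98.9% of the aldolase TPM. *Pgk2*, the testis form, was at most a trace beside *Pgk1*. With 3 libraries against 3, the exact two-sided permutation test can reach no p below 0.1, which 10 of the 14 tests gave (Benjamini-Hochberg 0.14), so no share passed 0.05.

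Among the 24 other glycolysis genes and isozymes, 12 were tested on Day 4, and 6 were called higher in OHT and 1 lower, with a median log2 fold change of 0.2, where 23.5% of all genes were called higher and 21.7% lower. *Gapdh*, the dehydrogenase between *Tpi1* and *Pgk1*, was called higher on both days (0.12 ± 0.04 and 0.26 ± 0.033). *Ldhb*, which favours pyruvate formation, was also higher on both (0.21 ± 0.051 and 0.58 ± 0.037), and *Bpgm*, the bisphosphoglycerate mutase, was lower on both (-0.24 ± 0.079 and -0.4 ± 0.076). *Eno1* was called higher on Day 4 (0.34 ± 0.029) and not on Day 2 (-0.076 ± 0.047), and *Pgam1* was lower on Day 2 (-0.2 ± 0.039) and at 0.031 ± 0.026 on Day 4. On Day 2, 2 of 14 tested were higher and 3 lower, where 9.17% of all genes were called higher and 10.6% lower. With day in EtOH 9 of 12 were called lower and 1, *Eno3*, higher, where 20.5% of all genes were called lower and 20.6% higher. With day in OHT 8 of 12 were called lower and 2, *Adpgk* and *Eno3*, higher, where it was 23.0% and 30.7%. Most tested genes of this list thus fell with day, as the members did. *Aldoc*, the brain aldolase, fell by 2.1 ± 0.076 in EtOH.

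The regulators of flux and of pyruvate use are given against the share of all genes tested that were called on Day 4, 23.5% higher, 21.7% lower and 45.1% either way. Here and in the other gene lists, genes that were not called with 1 sign on Day 2 and on Day 4, apart from *Gapdh*, *Pgam1* and *Eno1*, were named after their values were seen. Of 5 tested flux regulators 3 were higher in OHT and 1 lower on Day 4, and 0 were called on Day 2 in either direction. *Pfkfb3*, which makes the phosphofructokinase activator fructose 2,6-bisphosphate, was at 407 ± 4.78 normalised counts in Day 4 EtOH and 552 ± 24.2 in Day 4 OHT (log2 0.44 ± 0.093). *Txnip*, which limits glucose uptake and stands in the list of HIF and MYC regulators, was at 6405 ± 196 in Day 2 EtOH and 5614 ± 84.8 in Day 2 OHT, and at 5222 ± 118 in Day 4 EtOH and 9144 ± 192 in Day 4 OHT. It was called lower on Day 2 (-0.19 ± 0.042) and higher on Day 4 (0.81 ± 0.035), and the difference between the days was 1.0 ± 0.047. *Pdk1*, the kinase that shuts pyruvate out of the mitochondrial dehydrogenase, was at 4598 ± 66.2 in Day 4 EtOH and 6326 ± 52.6 in Day 4 OHT (log2 0.46 ± 0.035). Of the 11 tested genes of pyruvate dehydrogenase and its kinases, 3 were higher and 3 lower in OHT on Day 4. Of 6 tested genes of lactate and pyruvate transport 2 were higher and 2 lower. These lists were not tested against all genes.

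The neighbouring pathways and the HIF and MYC regulators are read against the same Day 4 shares of 23.5% higher and 21.7% lower over all genes. Of 9 tested pentose phosphate genes 4 were higher and 4 lower on Day 4, and *H6pd* was higher on both days (0.35 ± 0.081 and 0.29 ± 0.078). Of 3 tested gluconeogenesis genes *Pck2*, the mitochondrial phosphoenolpyruvate carboxykinase, was lower on both days, at -0.46 ± 0.087 and -1.3 ± 0.071. Of the 15 tested HIF and MYC regulators, 2 were higher and 8 lower on Day 4. *Mycn* was lower on both days (-0.32 ± 0.048 and -0.46 ± 0.043), *Hif1a* was higher on Day 4 at 0.19 ± 0.039, and *Myc* was lower at -0.36 ± 0.073. With day in EtOH 6 of the 15 tested were called higher and 4 lower, where 20.6% of all genes were called higher and 20.5% lower. *Myc* rose by 1.59 ± 0.088, in the opposite direction to the members. *Hif1a* was also called higher (5691 ± 141 to 6809.7 ± 369 normalised counts), and *Mycn* was not called. With day in OHT 5 of 16 were called higher and 6 lower, where it was 30.7% and 23.0%. *Hif1a* and *Myc* were among the higher and *Mycn* among the lower.

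Most HIF-1 target genes outside glycolysis were also lower on Day 4. Of 27 tested, of which *Pdk1*, *Egln1* and *Egln3* stand in another list too, 23 were called lower on Day 4 than on Day 2 in EtOH and 0 higher (median -0.97), where 20.5% of all genes were called lower, and 24 were called lower and 0 higher in OHT (median -0.83), where it was 23.0%. Among them *Bnip3*, a mitophagy receptor, fell by 2.51 ± 0.049 in EtOH, *Egln3*, an oxygen-sensing prolyl hydroxylase, by 2.58 ± 0.08 and *Ndrg1* by 2.38 ± 0.094, more than any member. In OHT against EtOH on Day 4, 9 of 26 tested were called higher and 8 lower, with a median of 0.028, where 23.5% of all genes were called higher and 21.7% lower. On Day 2, 11 of 28 were called lower and 1 higher (median -0.11), where it was 10.6% lower and 9.17% higher. For the difference between the days 10 of 27 were called higher and 4 lower (median 0.13), where it was 18.7% and 13.6%. *Stc2* (-1.02 ± 0.11), *Ddit4* (-0.66 ± 0.086) and *Mxi1* (-0.31 ± 0.073) were lower and *Bhlhe40* (0.45 ± 0.1) higher on Day 4, each in the same direction as on Day 2.

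**Figure D5:**
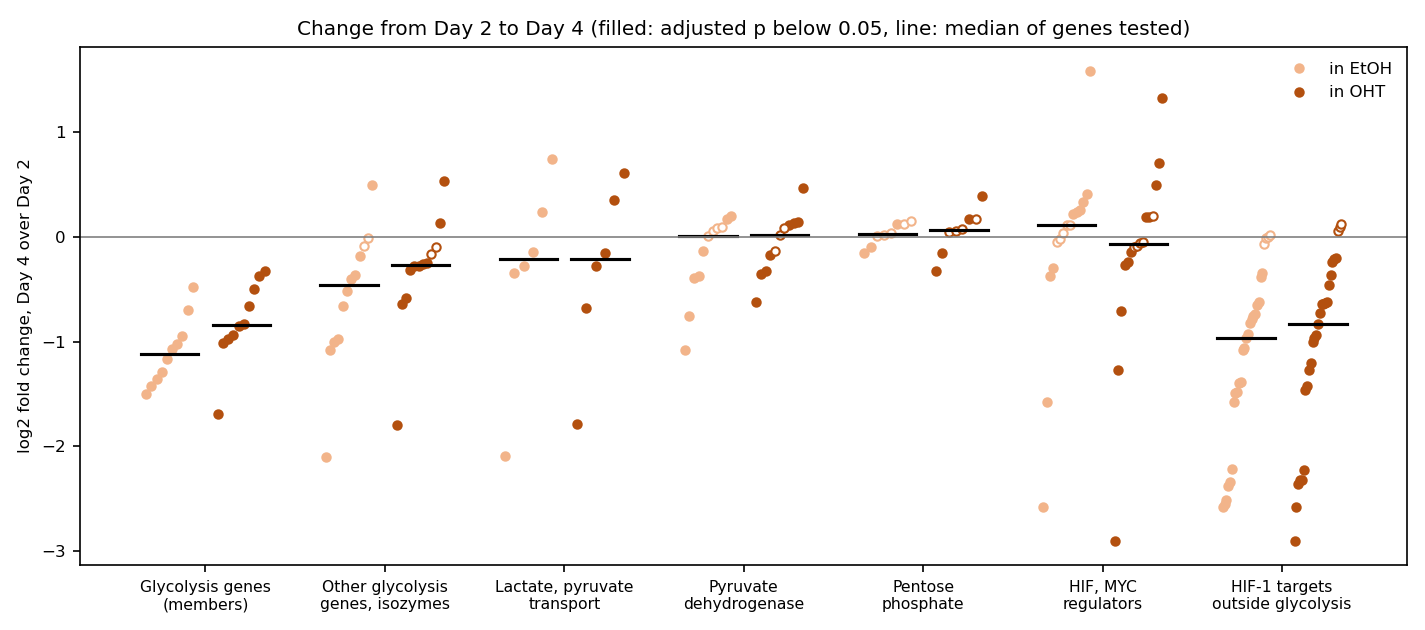
Log2 fold change from Day 2 to Day 4 for the tested genes of each list, in EtOH (light) and OHT (dark), filled where called, with a line at the median. The 10 members and the HIF-1 targets outside glycolysis lie below 0 almost throughout, whereas the pyruvate dehydrogenase and pentose phosphate lists centre near 0.

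The mean of the members' standardised log2 counts was followed across the 12 libraries. *Pgk1* (r = 0.998), *Tpi1* (0.997) and *Slc2a1* (0.994) tracked this mean most closely and *Pfkp* (0.824) least. Each member is itself part of the mean, which raises its r, so these values are not comparable with those of other genes. Of 11606 other genes the closest were *P4ha1* (r = 0.997), *Egln1* (0.995), *Fgfr3* (0.994), *Rnf19a* (0.993) and *Plod2* (0.993), which is a description over libraries that form 4 groups. *P4ha1*, a collagen prolyl hydroxylase subunit, had 2466 ± 20.1 normalised counts in Day 2 EtOH, 2274 ± 109.7 in Day 2 OHT, 934 ± 23.2 in Day 4 EtOH and 1138 ± 20.4 in Day 4 OHT. *Egln1*, the main oxygen-sensing prolyl hydroxylase, had 3099.8 ± 84.0, 2758 ± 188, 1039 ± 36.4 and 1141 ± 22.9 in the same order. Both had their highest mean in Day 2 EtOH and their lowest in Day 4 EtOH.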

How the data were processed

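RNA was sequenced as stranded total RNA libraries with paired reads from 12 mESC samples in 4 groups of 3. Reads were aligned by the authors (STAR 2.6.0c, GRCm38.p6), who quantified genes with RSEM on GENCODE annotation. The deposited values used here are RSEM expected counts, which need not be whole, and TPM, each for 1 library with replicates not pooled. The deposited comparison tables hold the authors' own fold changes and p-values, made with DESeq2 1.22.2, and were used only to pair gene IDs with symbols. The genome positions printed are those of a later GENCODE release on the same build, and upstream sequences and their coordinates come from RefSeq (GRCm38.p6).

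The expected counts, each rounded to the nearest whole number, entered DESeq2 1.42.0 (R 4.3.3), fitting the 6 libraries of each comparison, or all 12 for the difference between the days. A call needed a Benjamini-Hochberg adjusted p below 0.05 over all genes and a mean normalised count above 100, and SE values are those of DESeq2. Levels are counts divided by size factors over the 12 libraries. TPM served for levels between genes and shares within a step, tested by an exact two-sided permutation test. Profiles were compared by Pearson's r on log2(count + 0.5). Alternatives were edgeR 4.0.16, other scalings, length offsets, a replicate block, other filters and leaving out each library. The scripts were tested on simulated counts.

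The 10 members and the gene lists were chosen with earlier results of these data known. The rule for genes named beside the members took, for each list, those called with 1 sign on Day 2 and on Day 4 (at most 4, by the Day 4 change), *Gapdh*, *Pgam1* and *Eno1*, and the 5 genes nearest in profile. Other list genes, such as *Pfkfb3*, *Txnip*, *Pdk1*, *Slc2a3*, *Aldoc*, *Eno3*, *Hif1a*, *Myc*, *Bnip3*, *Egln3* and *Ndrg1*, were named after their values were seen.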

Additional observations from a re-analysis of the deposited data

Results flagged for a closer look

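The effect of OHT differed between Day 2 and Day 4 for all 10 members in the DESeq2 test of the treatment-by-day term at the 0.05 threshold, where 32.3% of all genes tested passed. The log2 difference, Day 4 minus Day 2, was 0.7 for *Pfkl*, 0.66 for *Aldoa*, 0.52 for *Tpi1*, 0.47 for *Pgk1* and 0.33 for *Pkm*. It was 0.28 for *Slc2a1*, 0.21 for *Gpi1*, 0.18 for *Ldha* and 0.14 for *Hk2*, and *Pfkp* had the opposite sign at -0.75. The call of *Hk2* was lost under several alternatives, as given above, while the other 9 kept theirs under every alternative run. Groups of 3 libraries were not tested for outlying samples.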

How the results depend on the processing

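The calls of all 10 members on Day 4, and from Day 2 to Day 4 in EtOH and in OHT, stayed the same in each of the 150 values computed per comparison. Of the 150 values for Day 2, 120 kept their side of the threshold, 22 lost it and 8 gained it, and none reversed. With total counts as scaling, 1 member was called lower on Day 2 in place of 4, and leaving out 1 library gave 1 to 6 called lower and 0 to 1 called higher. The Day 2 to Day 4 median in OHT was -0.79 with effective lengths as offsets and -0.89 with the length trend removed, against -0.84. With normalised counts in place of TPM the share differences were -5.47 for *Slc2a1*, 22.2 for *Pfkl*, -23.9 for *Pfkp*, 0.539 for *Aldoa* and -5.09 for *Ldha* on Day 4, and -2.66 for *Ldha* on Day 2. The members took 1.1, 1.07, 0.568 and 0.672% of expected counts in Day 2 EtOH, Day 2 OHT, Day 4 EtOH and Day 4 OHT. The causes were not tested.

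Deviations of same-numbered libraries from their group means had correlations of -0.43 to 0.29. With 3 libraries in a group this cannot decide whether the numbers pair cultures, and the main fits did not pair them. The replicate block left the members' counts at 0 higher and 4 lower on Day 2, 7 and 1 on Day 4, 9 and 1 for the difference and 0 and 10 with day. Over all genes on Day 2 it gave 658 higher and 659 lower against 1068 and 1238. Total counts as scaling gave 1389 and 638, so that 68.5% of calls were higher against 46.3%, and for the difference between the days 44.2% against 58.0%. Leaving out Day 2 EtOH replicate 1 gave 615 and 586, and replicate 2 gave 697 and 710.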
